A study of Arabidopsis thaliana with 6 samples.

Results

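Plant mitochondria keep a genome of their own. It encodes some subunits of the respiratory chain and of the ATP synthase, proteins that assemble c-type cytochromes, a few ribosomal proteins, a maturase and RNAs of the mitochondrial ribosome, while most other mitochondrial proteins come from nuclear genes. Mitochondrial genes are transcribed by phage-type RNA polymerases encoded in the nucleus, and their transcripts undergo splicing and C-to-U editing. The transcripts described here are the rows of the count tables whose identifier starts with ATMG, the prefix for genes of the *Arabidopsis* mitochondrial genome. There were 93 such rows with a read among 24509 transcripts with a read in any library, and 80 of the 93 passed the filter on low counts.

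The libraries came from Col-0 embryos dissected 8 d after pollination, with 25 to 30 embryos pooled in each biological replicate. Of the 6 libraries, 3 were from plants homozygous for *wri1-1*, a mutant allele of the gene for the transcription factor WRI1, and 3 were from wild-type (WT) plants. The question put to the data was whether transcripts of the mitochondrial genome differed between *wri1-1* and WT embryos, set against their spread over replicates. The mutation was not visible as a loss of mRNA. *WRI1* (AT3G54320) averaged 1133 ± 111 CPM in the libraries labelled *wri1-1* and 167 ± 19.2 CPM in WT (SD, n = 3 each), where CPM are counts per 1000000 reads scaled by edgeR's TMM factors. In bulk RNA, fewer mitochondria, less RNA per mitochondrion and a different mix of cells cannot be told apart.

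Depth and composition differed among the libraries. Reads on transcripts numbered 8510887 to 18933870 in the libraries labelled *wri1-1* and 11566131 to 14449130 in WT. *wri1-1* replicate 1 stood apart in that 86.6% of its reads were in a row naming no transcript, against 39.6% to 45.0% in the other 5 libraries. WT replicate 1 stood apart in its counts, with a chi-square per degree of freedom of 83.5 and 94.4 against the other WT replicates, which differed from each other by 7.28. For these reasons the results below are given with and without WT replicate 1, and where it bears on them without *wri1-1* replicate 1. All 4 embryo markers checked were detected, with summed levels of 826 to 949 CPM in the libraries labelled *wri1-1* and 924 to 1136 CPM in WT. Of these, *L1L* (a regulator of embryo development) was lower in *wri1-1*, with a log2 fold change of -3.77. The other 3 were above 0, *LEC1* at 0.80, *ABI3* at 0.31 and *FUS3* at 0.18, and none of these 3 was called with all libraries. *LEC1* was at 1.14 (adjusted p = 0.0034, edgeR) without WT replicate 1. The 6 endosperm markers summed to 262, 73.7 and 172 CPM in *wri1-1* replicates 1 to 3 and to 394, 68.6 and 127 CPM in WT replicates 1 to 3, so that replicate 1 was the highest of each genotype. Most of that sum was *EPR1*, at 161, 39.5 and 104 CPM in *wri1-1* and 344, 40.95 and 80.7 CPM in WT. Of the 5 endosperm markers tested, 4 were above 0, and *FWA* (log2 fold change 2.46, adjusted p = 0.040, edgeR) and *AGL62* (1.89, adjusted p = 0.048) were called higher in *wri1-1*. Both were low, with 0.265 to 3.29 CPM in any library, and *AGL62* had an adjusted p of 0.056 without WT replicate 1. The 4 seed coat markers summed to 121 to 274 CPM in *wri1-1* and 123 to 170.0 CPM in WT. No marker of either tissue was at 0 in every library, and their part in the results on the mitochondrial transcripts was not tested.

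What the counts of a mitochondrial gene can show depends on chromosome 2. In the TAIR10.1 reference, alignments of at least 1000 bases to the mitochondrial genome covered 99.6% of a stretch of chromosome 2 at chr2:3239038-3509765, with 99.56% to 99.97% identity. The stretch held 72.2% of the mitochondrial genome of 367808 bases. The authors dropped reads with more than 1 best place, so a read that fitted 2 of the mapped transcripts equally well was counted on neither. The mitochondrial sequence of this reference need not be the one under the ATMG numbers that the authors mapped to. Of 33 mitochondrial protein-coding genes in the reference, 13 had every stretch of 31 bases also in an annotated exon of the chromosome 2 stretch, 15 had some and 5 had none. The whole coding sequences of 12 genes with 1 exon were compared directly, and all 12 were without a difference from their copy on chromosome 2.

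The first 30 bases of 4 of these genes are shown because they are the same letters in both genomes. The start codon is in capitals, and the sequences are from RefSeq (TAIR10.1), 5′ to 3′ on the coding strand.
*cob*, apocytochrome b, with its copy at chr2:3450863-3452044, plus strand: ATGactataaggaaccaacgattctctctt
*cox3*, cytochrome c oxidase subunit 3, with its copy at chr2:3311854-3312651, minus strand: ATGattgaatctcagaggcattcttatcat
*atp1*, ATPase subunit 1, with its copy at chr2:3362505-3364028, plus strand: ATGgaattatctcctagagctgcggaacta
*rps7*, ribosomal protein S7, with its copy at chr2:3351340-3351786, minus strand: ATGgggggcttggatggtgagcaaaaacta

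Which of the paired rows held reads differed from gene to gene. The reference gives a product for 24 ATMG numbers, through the notes on their nuclear counterparts, and of these 24 numbers 9 had no read in any library, 5 had too few to be tested and 10 were tested. Apocytochrome b (ATMG00220), the membrane-bound core of complex III, had 0 reads in each library labelled *wri1-1* and 1, 1 and 0 reads in WT. Its counterpart on chromosome 2, AT2G07727, had 688, 1525 and 650 reads in *wri1-1* and 1576, 823 and 839 reads in WT. Ribosomal protein S7 (ATMG01270), part of the small subunit of the mitochondrial ribosome, had no read, and its counterpart AT2G07696 had 1545, 2899 and 1240 reads in *wri1-1* and 1435, 1204 and 1292 reads in WT. NADH dehydrogenase 3 (ATMG00990), a membrane subunit of complex I, had 1 to 9 reads a library and its counterpart AT2G07751 had none. ATP synthase subunit 1 (ATMG01190), which belongs to the catalytic head of the ATP synthase, had 2629 reads over the 6 libraries, and its counterpart AT2G07698 had 13729. ATPase subunit 6-1 (ATMG00410), of the proton channel, was the reverse case, with 7946 reads and none on AT2G07741. The 13 ATMG rows that were not tested had between 2 and 60 reads over all libraries. A low count in any of these rows does not show that the transcript was absent, and where a counterpart also has reads the values of a mitochondrial row are those of the row and not of the whole transcript.

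**Figure D1:**
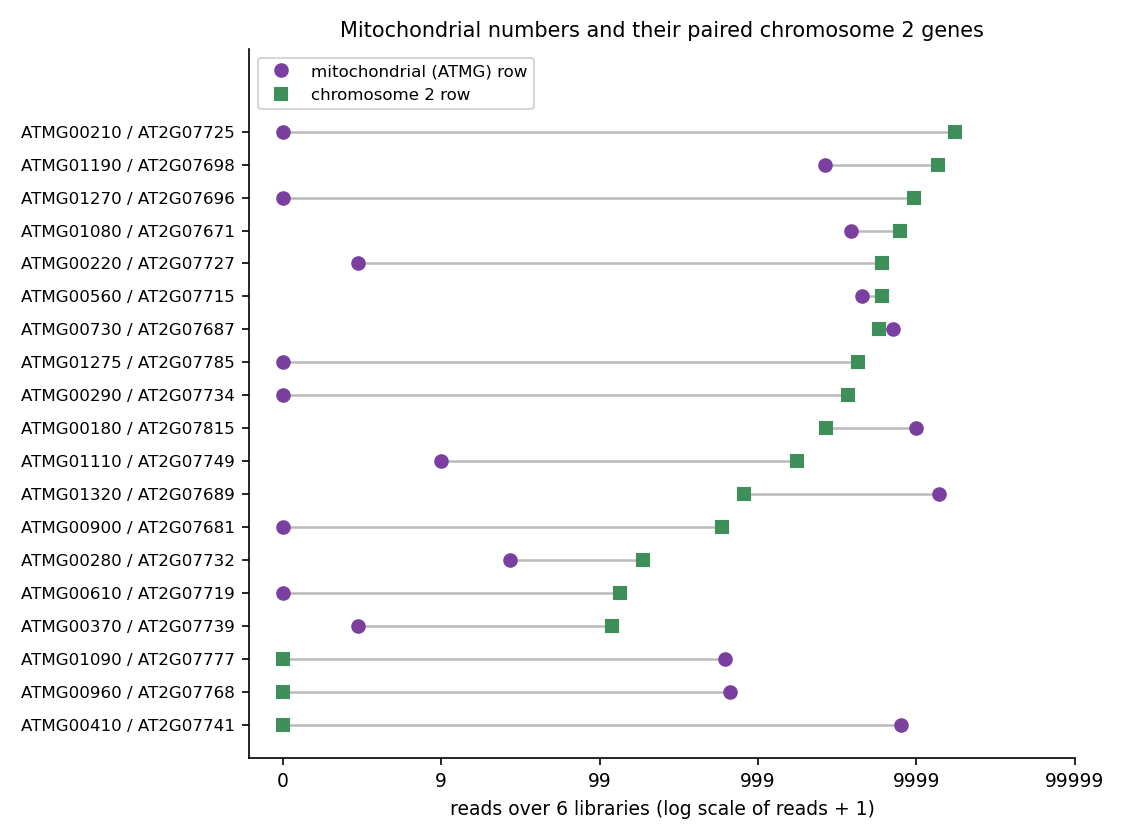
Reads summed over the 6 libraries on mitochondrial rows (circles) and on the chromosome 2 genes that the reference pairs with them (squares), on a log scale of reads + 1, for the pairs with over 100 reads. ATMG00210 and ATMG01270 are at 0 where AT2G07725 and AT2G07696 have 17557 and 9615 reads, while ATMG00410 has 7946 reads and AT2G07741 has none.

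Over all 93 rows, mitochondrial transcripts took a larger share of the counted reads in *wri1-1* than in WT, by a margin that rests in large part on WT replicate 1. The share was 1.75%, 1.605% and 1.63% in *wri1-1* replicates 1 to 3, and 0.906%, 1.52% and 1.44% in WT replicates 1 to 3. The groups did not overlap, but the lowest *wri1-1* library and the highest WT library were close to each other. The mean was 1.66% ± 0.0775 in *wri1-1* and 1.29% ± 0.334 in WT (SD, n = 3 each), a ratio of geometric means of 1.32 (two-sided exact permutation test on log2 shares, p = 0.10, the smallest p that 3 against 3 libraries allow). Without WT replicate 1 the ratio was 1.12, and without both first replicates it was 1.09. The chloroplast-encoded transcripts, as another organellar set, took 4.42%, 4.26% and 4.29% of the counted reads in *wri1-1* and 3.75%, 7.79% and 7.15% in WT, so WT replicate 1 was the lowest library for both organelles. When the row naming no transcript was added to the total, the mitochondrial share was 0.234%, 0.970% and 0.946% in *wri1-1* and 0.498%, 0.839% and 0.800% in WT, and the groups overlapped.

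**Figure D2:**
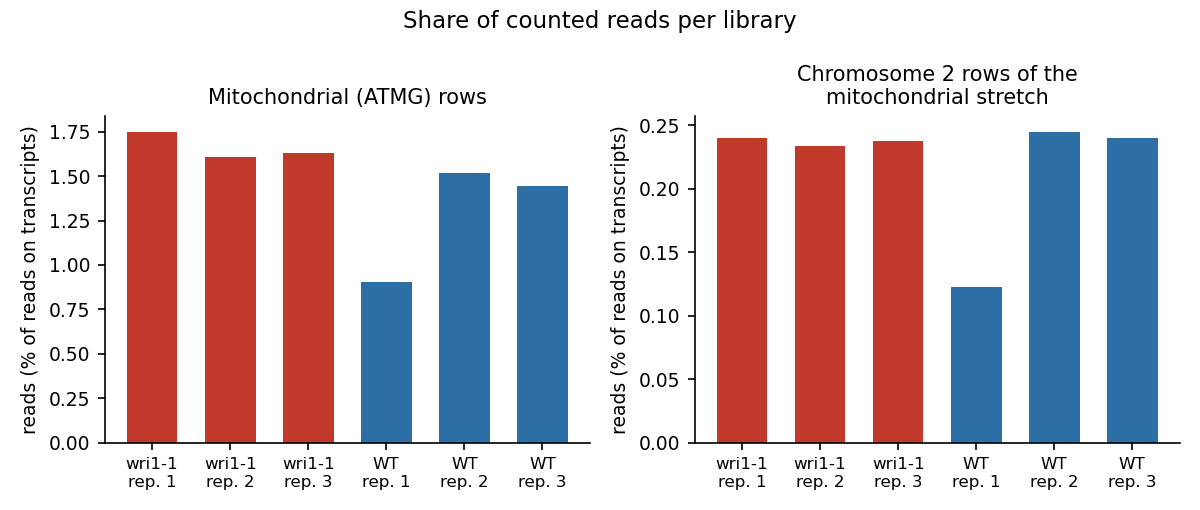
Percent of counted reads in each library (*wri1-1* in red on the left, WT in blue on the right) on the mitochondrial rows and on the chromosome 2 rows of the mitochondrial stretch, with 1 bar a library. WT replicate 1 has the lowest bar in both panels, at 0.906% and 0.122%.

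A few transcripts made up most of these reads. The 5 most abundant members (ATMG00513, ATMG00090, ATMG00580, ATMG00030 and ATMG01360, none with a product in the reference used here) took 58.7% to 65.3% of the mitochondrial reads in *wri1-1* libraries and 63.8% to 66.0% in WT. With these 5 left out, the remaining mitochondrial reads were 0.722%, 0.567% and 0.565% of the counted reads in *wri1-1* and 0.328%, 0.517% and 0.492% in WT. Gene lengths for the ATMG numbers were not at hand, so levels are compared between libraries and not between transcripts.

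No mitochondrial transcript was called differentially expressed, and the differences of the tested members were mostly small. A call required an adjusted p of at most 0.05 (edgeR's quasi-likelihood test, Benjamini-Hochberg over the 18241 genes tested) and a log2 fold change beyond 1. Of the 80 members, 0 were called lower and 0 higher in *wri1-1*, where 5.31% of all genes tested were called lower and 1.08% higher. Without the fold minimum, 0 members passed an adjusted p of 0.05, against 10.2% of all genes. At an unadjusted p under 0.05 there were 5 members, all higher in *wri1-1* (ATMG01360, ATMG00180, ATMG00560, ATMG00960 and ATMG00160), against 25.1% of all genes in either direction. limma-voom called 0 members and DESeq2 called 0, although 2 members (ATMG01360 and ATMG00180) passed the adjusted p of DESeq2 with log2 fold changes of 0.52 and 0.94. The replicate block, which pairs libraries of the same number, left the calls at 0.

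The fitted log2 fold changes of the 80 members had a median of 0.24, against -0.01 for all genes tested, and ran from -1.06 to 2.05. There were 57 members above 0 and 23 below (69 and 11 with scaling by library size alone, which moved the median of all genes to 0.17), where 49.4% of all genes were above 0. Without WT replicate 1 the median was 0.03, with 42 members above 0 and 38 below, and 51.1% of all genes above 0. The 3 *wri1-1* libraries were all above the WT libraries for 13 of the 80 members, against 16.1% of all genes, and all below them for 3 members, against 18.9% of all genes. The 95% interval of the log2 fold change lay wholly between -1 and 1 for 34 members, and a difference of 2-fold was inside the interval for the other 46. Members reached this precision less often than all genes tested (42.5% of members, 56.6% of all genes), with a median standard error of 0.33 and 0.23. Intervals were widest for the rarest members. Of 38 members with a mean under 10 CPM, 8 had an interval within these bounds.

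**Figure D3:**
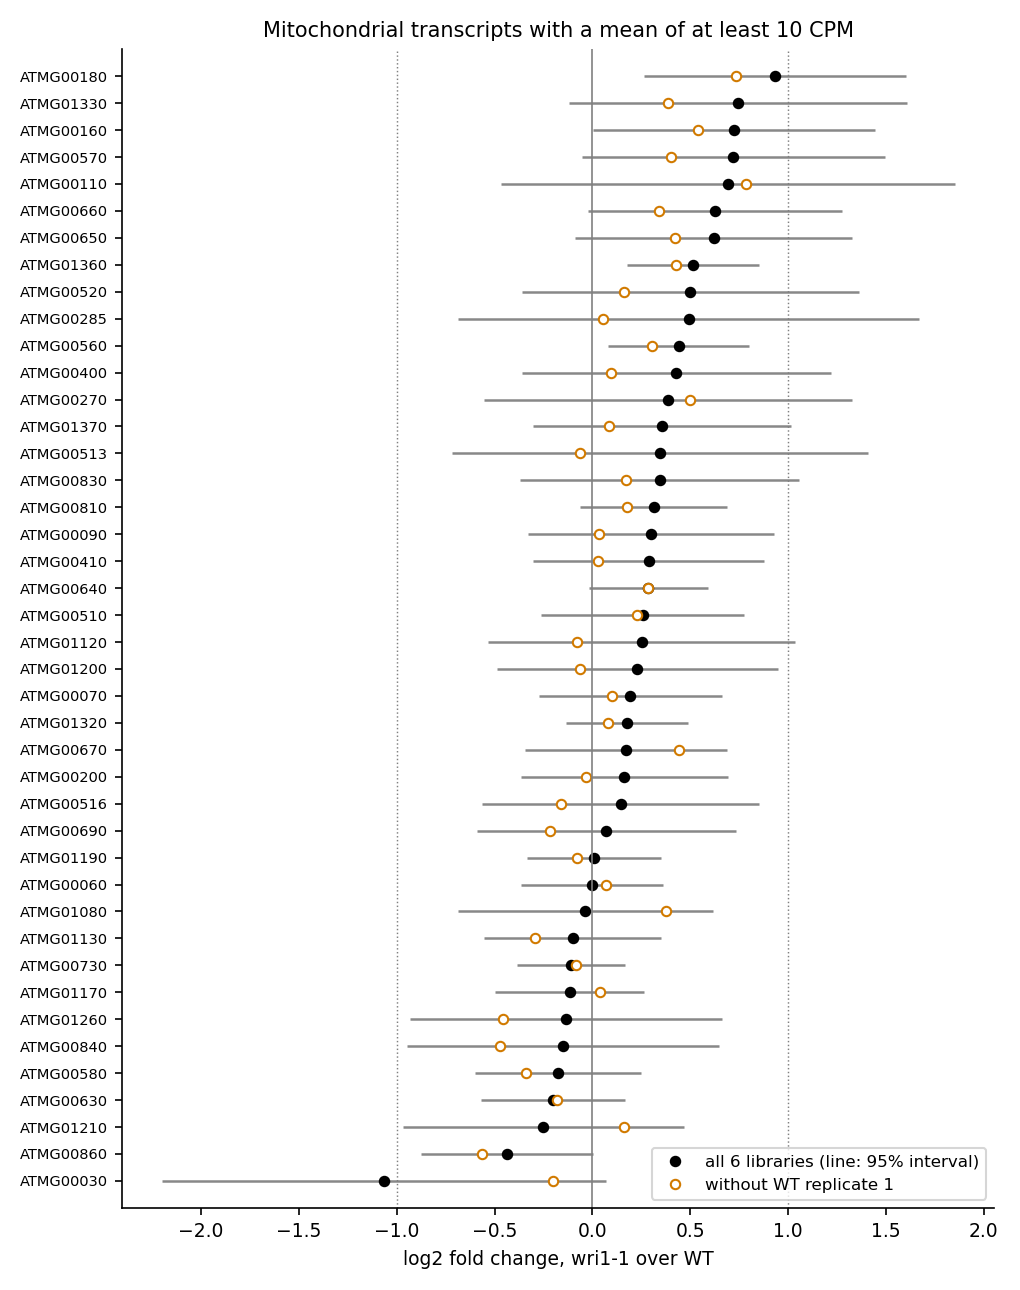
Log2 fold change of *wri1-1* over WT for the 42 members with a mean of at least 10 CPM, with all 6 libraries (filled points, lines for the 95% interval) and without WT replicate 1 (open points). Of the 42 open points, 29 lie closer to 0 than the filled ones, as for ATMG00030 at -1.06 with all libraries and -0.20 without that replicate, while ATMG01080 goes from -0.04 to 0.38.

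The spread over replicates was small in *wri1-1* and large in WT. On a log2 scale of CPM + 0.5, the SD over the 3 replicates had a median over the 80 members of 0.151 in *wri1-1* and 0.466 in WT. Over all genes tested these medians were 0.148 in *wri1-1* and 0.306 in WT. Between replicates 2 and 3 the median absolute difference over the members was 0.136 in *wri1-1* and 0.131 in WT, so replicates 2 and 3 of each genotype lay close to each other. The WT spread came with replicate 1, which was the lowest of all 6 libraries for 55 of the 80 members and the highest for 9, whereas over all genes it was the lowest for 32.3% and the highest for 33.5%. It lay more than 2-fold below the median of the other libraries for 27 members and more than 2-fold above it for 1, ATMG00030 (7.53% and 12.45% of all genes). *wri1-1* replicate 1 was the highest library for 23 members, and over all genes for 16.05%. It lay more than 2-fold above the median of the other libraries for 6 of the 80 members (7.5%), against 2.97% of all genes. It lay more than 2-fold below that median for 0 members, against 5.10% of all genes. No other library lay more than 2-fold from the median of the rest for any member.

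**Figure D4:**
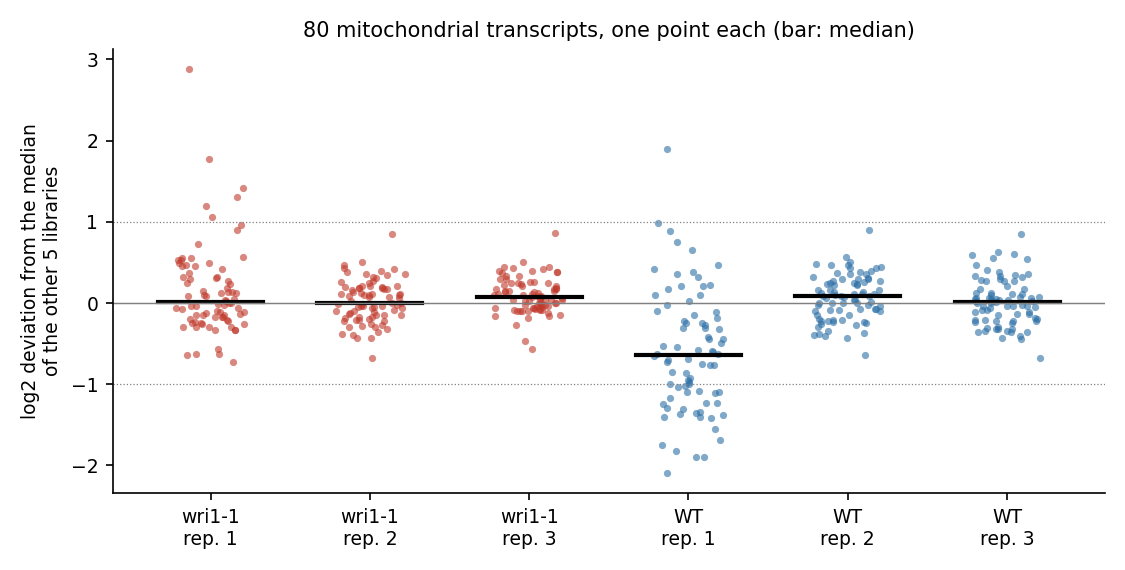
Log2 deviation of each library from the median of the other 5 libraries for the 80 tested mitochondrial transcripts, 1 point a transcript, with a bar at the median and dotted lines at 2-fold. WT replicate 1 has a median of -0.64, and the medians of the other 5 libraries lie between 0.00 and 0.08.

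ATMG00513, the most abundant member, shows how much this library weighs. Its level was 4779.9, 4667 and 5231 CPM in *wri1-1* and 1345, 5194 and 4999 CPM in WT. WT replicate 1 was far below the other 5 libraries, which lay close together. The log2 fold change was 0.35 ± 0.45 (SE, adjusted p = 0.67, edgeR) with all libraries and -0.06 without WT replicate 1. In WT replicate 1 ATMG00513 made up 13.1% of the mitochondrial reads, against 29.2% to 33.5% in the other libraries.

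ATMG00030 went the other way. It had 626, 639.7 and 703 CPM in *wri1-1* and 2614, 740.1 and 764 CPM in WT. The *wri1-1* libraries were all below the WT libraries, but the distance to WT replicates 2 and 3 was small. The log2 fold change, the lowest of any member tested, was -1.06 ± 0.48 (SE, adjusted p = 0.23, edgeR) and -0.20 without WT replicate 1. Its share of the mitochondrial reads was 25.4% in that library and 3.83% to 5.10% in the others. ATMG00285 had 232, 170.1 and 164 CPM in *wri1-1* and 40.8, 187 and 175 CPM in WT, with WT replicate 1 the outlying library again.

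Of the respiratory chain, the subunits of complex I, which passes electrons from NADH to ubiquinone, are the largest group encoded in the mitochondrion. Of 14 numbers listed for it, 11 were tested, 9 above 0 and 2 below, and none was called. Without both first replicates, 2 were above 0 and 9 below. NADH dehydrogenase 2B (ATMG01320) had 186, 199 and 194 CPM in *wri1-1* and 149, 185 and 178 CPM in WT. All *wri1-1* libraries were above all WT libraries by a narrow margin, with a log2 fold change of 0.18 ± 0.13 (SE) and a 95% interval of -0.14 to 0.49. The log2 fold changes of the 11 ran from -0.18 to 0.62, and from -0.34 to 0.50 without WT replicate 1. The highest with all libraries was ATMG00650, with 217, 126 and 109 CPM in *wri1-1* and 69.8, 111 and 113 CPM in WT. Its log2 fold change of 0.62 was 0.26 without *wri1-1* replicate 1 and 0.07 without both first replicates.

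Complex IV, cytochrome c oxidase, passes electrons to oxygen. All 3 numbers listed for it were tested, 2 were above 0 and 1 below, and none was called. Their median log2 fold change was 0.52 with all libraries, 0.43 without WT replicate 1 and 0.15 without both first replicates. The 2 above 0, ATMG01360 and ATMG00160, were without overlap between the genotypes and are described further on. Subunit 3 (ATMG00730) was the 1 below and had 98.6, 88.0 and 87.7 CPM in *wri1-1* and 103, 95.4 and 97.7 CPM in WT. It was among the steadiest members, and the groups overlapped. Its log2 fold change was -0.11 with a 95% interval of -0.38 to 0.17. Its counterpart on chromosome 2, AT2G07687, had 75.6, 84.7 and 83.4 CPM in *wri1-1* and 34.0, 92.4 and 93.1 CPM in WT. WT replicate 1 was low on the chromosome 2 row and not on the mitochondrial row of the same product. A number annotated with a transmembrane domain like that of oxidase subunit II, ATMG01280, was at 0.157 to 1.73 CPM in all libraries, too low to compare.

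The ATP synthase makes ATP from the proton gradient. Of 6 numbers listed for it, 5 were tested, 3 above 0 and 2 below, and none was called. The median of the 5 was 0.01 on the log2 scale (0.04 without WT replicate 1). ATPase subunit 6-1 (ATMG00410) had 108, 118 and 119.5 CPM in *wri1-1* and 58.4, 118 and 107 CPM in WT. Only WT replicate 1 was apart, and the log2 fold change was 0.29 ± 0.25 (SE) with all libraries and 0.03 without that replicate. Subunit 1 (ATMG01190) had 31.004, 38.1 and 34.2 CPM in *wri1-1* and 30.1, 35.6 and 37.0 CPM in WT. Its log2 fold change was 0.01 with a 95% interval of -0.34 to 0.35, which does not reach a 2-fold difference in either direction on this row. AT2G07698, its counterpart with more reads, had 197, 209.96 and 208 CPM in *wri1-1* and 75.4, 189 and 204 CPM in WT, with WT replicate 1 apart, and an interval of -0.40 to 1.19 around a log2 fold change of 0.39. The F0 subunit 9 (ATMG01080), which forms the rotating ring in the membrane, had 51.9, 48.9 and 50.1 CPM in *wri1-1* and 77.4, 37.9 and 39.3 CPM in WT. WT replicate 1 was the highest library here and WT replicates 2 and 3 the lowest. The log2 fold change was -0.04 (adjusted p = 0.95, edgeR) with all libraries and 0.38 (adjusted p = 0.022) without WT replicate 1, so its direction rests on that library. The counterpart of ATMG01080, AT2G07671, had 106, 119 and 114 CPM in *wri1-1* and 90.4, 96.2 and 90.1 CPM in WT, without overlap (log2 fold change 0.29, adjusted p = 0.17, edgeR). ATMG01170 had 221, 255 and 243 CPM in *wri1-1* and 314, 229 and 236 CPM in WT, and its log2 fold change of -0.12 was 0.04 without WT replicate 1. ATMG00640, also listed here, is described with the abundant members. ATMG01090, annotated as subunit 9 like ATMG01080, had 9.69, 10.7 and 8.91 CPM in *wri1-1* and 3.69, 7.96 and 6.82 CPM in WT. The groups did not overlap, with a log2 fold change of 0.67 ± 0.30 (SE, adjusted p = 0.22, edgeR).

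The transcripts for cytochrome c maturation, the attachment of heme to c-type cytochromes, had the highest median log2 fold change of the groups listed, but not without *wri1-1* replicate 1. Of 5 listed, 4 were tested, all 4 were above 0, their median was 0.81, and none was called. Without *wri1-1* replicate 1, 2 were above 0 and 2 below with a median of 0.24, and without both first replicates the median was 0.14. A cytochrome c biogenesis protein (ATMG00180) had 246, 132 and 152 CPM in *wri1-1* and 66.0, 104 and 107 CPM in WT. *wri1-1* replicate 1 was the highest and WT replicate 1 the lowest, and without these the groups still did not overlap. The log2 fold change was 0.93 ± 0.29 (SE, adjusted p = 0.089, edgeR) with all libraries and 0.42 (adjusted p = 0.020) without both first replicates. Its counterpart on chromosome 2, AT2G07815, had 47.1, 36.4 and 37.5 CPM in *wri1-1* and 10.6, 42.2 and 43.7 CPM in WT. That row had a log2 fold change of 0.33 with all libraries and -0.10 without WT replicate 1. There too *wri1-1* replicate 1 was the highest library and WT replicate 1 the lowest. A cytochrome C assembly protein (ATMG00960) had 17.9, 9.07 and 8.23 CPM in *wri1-1* and 4.63, 6.99 and 6.30 CPM in WT. The fold change followed the same 2 libraries, at 0.97 ± 0.35 on the log2 scale (SE, adjusted p = 0.13, edgeR) with all of them and 0.38 (adjusted p = 0.21) without both. ATMG00110 had 131, 37.0 and 35.9 CPM in *wri1-1* and 47.7, 40.2 and 38.0 CPM in WT. The difference was in *wri1-1* replicate 1 alone, and the log2 fold change of 0.69 became -0.21 without it. ATMG00830 had 195, 95.9 and 104 CPM in *wri1-1* and 78.3, 123 and 109.9 CPM in WT, and its log2 fold change of 0.34 was -0.05 without *wri1-1* replicate 1.

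*wri1-1* replicate 1 was likewise alone for ATMG00270, with 88.1, 32.4 and 32.0 CPM in *wri1-1* and 45.2, 38.7 and 32.7 CPM in WT. Without it, its log2 fold change of 0.38 became -0.27. ATMG01060 had the highest fitted log2 fold change of all members, 2.05 ± 1.03 (SE, adjusted p = 0.27, edgeR). Its levels were 8.23, 0.542 and 0.902 CPM in *wri1-1* and 0.628, 0.973 and 0.690 CPM in WT, so that the value again came from 1 library. It was -0.13 without *wri1-1* replicate 1. ATMG00160, among the 3 largest rises of members with a mean of at least 10 CPM, had 209.8, 109.6 and 107 CPM in *wri1-1* and 63.2, 101 and 93.9 CPM in WT. Its log2 fold change was 0.72 with all libraries, 0.33 without *wri1-1* replicate 1 and 0.15 without both first replicates.

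Ribosomal protein genes were mostly out of reach on their mitochondrial rows, since only 2 of 7 listed were tested. Chromosome 2 counterparts for ribosomal proteins L5 (AT2G07725), S4 (AT2G07734) and S7 (AT2G07696) did have reads and were tested. Their log2 fold changes were 0.09, -0.15 and 0.36 with all libraries and -0.10, -0.12 and 0.37 without WT replicate 1. One of the 2 tested mitochondrial rows is ATMG00560, annotated as a nucleic acid-binding OB-fold-like protein. It had 65.9, 71.3 and 66.1 CPM in *wri1-1* and 40.5, 55.8 and 53.6 CPM in WT. Every *wri1-1* library was above every WT library, with a log2 fold change of 0.44 ± 0.15 (SE, adjusted p = 0.13, edgeR) and 0.31 (adjusted p = 0.043) without WT replicate 1. The counterpart on chromosome 2, AT2G07715, had 103, 80.4 and 90.9 CPM in *wri1-1* and 47.7, 81.8 and 84.4 CPM in WT.

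**Figure D5:**
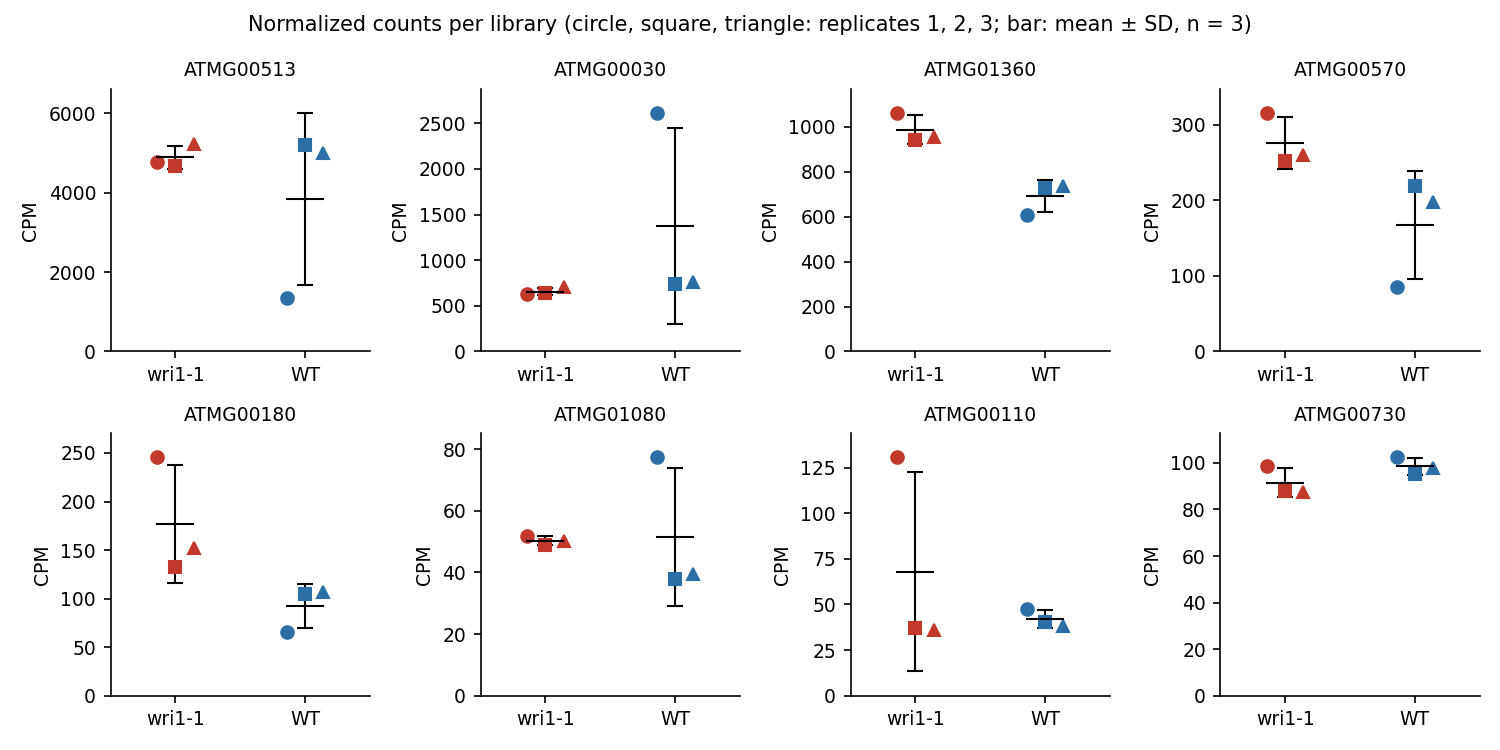
CPM of 8 members in each library (*wri1-1* on the left, WT on the right, with the mean and SD of 3 replicates, and circles, squares and triangles for replicates 1, 2 and 3). WT replicate 1 is apart for ATMG00513, ATMG00030, ATMG00570 and ATMG01080, *wri1-1* replicate 1 for ATMG00180 and ATMG00110, and ATMG00730 varies least, from 87.7 to 103 CPM.

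ATMG01360 came closest to passing the test. It had 1062, 942 and 957 CPM in *wri1-1* and 608, 729 and 735 CPM in WT. The *wri1-1* libraries were all above the WT libraries, with a gap wider than the spread within either genotype outside WT replicate 1. The log2 fold change was 0.52 ± 0.14 (SE, adjusted p = 0.067, edgeR), with a 95% interval of 0.18 to 0.85. It was 0.43 (adjusted p = 0.013) without WT replicate 1 and 0.37 (adjusted p = 0.0093) without both first replicates.

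Leaving out WT replicate 1 tightened the WT group, and small differences then passed the adjusted p. Without it, 9 members had an adjusted p of at most 0.05, against 21.2% of all genes, and 0 were called with the fold minimum, against 7.77% of all genes. Of the 9, 7 were higher in *wri1-1* (ATMG00560, ATMG00570, ATMG00660, ATMG00670, ATMG01080, ATMG01330 and ATMG01360) and 2 were lower (ATMG00580 and ATMG00860), with log2 fold changes from -0.56 to 0.44. Without both first replicates there were 10 such members of 79 tested, against 22.5% of all genes, and 0 called, against 7.96%. ATMG00660 had 234, 225 and 248 CPM in *wri1-1* and 88.2, 189 and 181 CPM in WT. ATMG00670 had 33.7, 36.6 and 40.5 CPM in *wri1-1* and 44.3, 27.0 and 27.1 CPM in WT, with WT replicate 1 on the other side. ATMG01330 had 169, 139 and 152 CPM in *wri1-1* and 41.1, 113 and 121 CPM in WT, without overlap. Among the 2 that were lower, ATMG00580 had 989, 968 and 929.9 CPM in *wri1-1* and 837, 1253 and 1171 CPM in WT. It had a log2 fold change of -0.18 with all libraries and -0.34 (adjusted p = 0.0225) without WT replicate 1. ATMG00860 had 10.2, 9.17 and 11.2 CPM in *wri1-1* and 11.4, 15.7 and 14.2 CPM in WT, and was below WT in every pair of libraries.

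Other abundant members mostly showed the same 2 libraries apart or no clear difference. ATMG00090 had 2141, 2476 and 2371 CPM in *wri1-1* and 1152, 2330.4 and 2197 CPM in WT. ATMG00520 had 684, 456 and 520.4 CPM in *wri1-1* and 187, 500.1 and 488 CPM in WT, with *wri1-1* replicate 1 the highest and WT replicate 1 the lowest library. ATMG00570 had 316, 252 and 259.8 CPM in *wri1-1* and 85.7, 219 and 198 CPM in WT, without overlap. The log2 fold changes of these 3 were 0.30, 0.50 and 0.72 with all libraries and 0.04, 0.16 and 0.40 without WT replicate 1. For ATMG00570 the adjusted p was 0.049 (edgeR) without WT replicate 1. Without both first replicates its log2 fold change was 0.29 (adjusted p = 0.042, edgeR). ATMG00640 had 649, 553 and 564 CPM in *wri1-1* and 485, 482 and 481 CPM in WT. Its WT libraries, WT replicate 1 included, were nearly equal, and the log2 fold change was 0.29 ± 0.13 (SE, adjusted p = 0.22, edgeR). ATMG00690 had 158, 184 and 173 CPM in *wri1-1* and 93.3, 203 and 194 CPM in WT, and ATMG00810 had 92.4, 86.9 and 96.4 CPM in *wri1-1* and 60.1, 87.1 and 74.5 CPM in WT. Both overlapped between genotypes. ATMG01210, the third lowest by fold change among members with a mean of at least 10 CPM, had 12.8, 10.2 and 10.9 CPM in *wri1-1* and 20.2, 10.7 and 9.40 CPM in WT, and its log2 fold change of -0.25 was 0.16 without WT replicate 1.

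Of the nuclear genes that work with these transcripts, few were called. Of 71 listed, which encode subunits of complexes I to V, cytochrome c, enzymes of the alternative respiratory pathways and factors of mitochondrial transcription and RNA processing, 62 were tested and 2 were called higher and 0 lower in *wri1-1*, where 1.08% and 5.31% of all genes were called. Their median log2 fold change was 0.04, with lists on either side of it. *NDA1* (AT1G07180), an NAD(P)H dehydrogenase that bypasses complex I, had 12.2, 9.71 and 11.7 CPM in *wri1-1* and 1.34, 1.15 and 0.863 CPM in WT. The groups were far apart, with a log2 fold change of 3.31 ± 0.27 (SE, adjusted p = 6.1e-04, edgeR). *PMH1* (AT3G22310), a mitochondrial RNA helicase, had 98.4, 119.6 and 127 CPM in *wri1-1* and 39.7, 58.7 and 54.5 CPM in WT, also without overlap, with a log2 fold change of 1.17 ± 0.19 (SE, adjusted p = 0.0091, edgeR). It lost its call without *wri1-1* replicate 2 (adjusted p = 0.0517, edgeR) and without *wri1-1* replicate 3 (adjusted p = 0.0535). Each time 1 nuclear gene was left called. Without WT replicate 1, 5 of the listed genes were called, against 7.77% of all genes. That count was not confined to the 62 genes tested with all libraries. Of the 42 tested nuclear genes for subunits of complexes I to V and cytochrome c, 0 were called by edgeR. There were 4 with an unadjusted p under 0.05, against 25.1% of all genes. Without WT replicate 1, 7 of the 42 had an adjusted p of at most 0.05, against 21.2% of all genes, and 2 were called, against 7.77% of all genes. Both were higher in *wri1-1*, *SDH2-3* of complex II (log2 fold change 1.41, adjusted p = 0.046, edgeR) and *CYTC-2*, a cytochrome c (1.02, adjusted p = 0.0012). All 7 nuclear genes of complex IV were below 0 and none was called. The median of the 7 was -0.36 on the log2 scale, and without WT replicate 1 there were 3 above and 4 below with a median of -0.01. For the 14 factors of mitochondrial transcription and RNA processing, 12 were above 0 and 2 below, the median being 0.40 on the log2 scale (0.27 without WT replicate 1), and *PMH1* was the 1 called. *ABO6*, an RNA helicase, also passed the adjusted p, at a log2 fold change of 0.67 (adjusted p = 0.038, edgeR).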

How the data were processed

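Libraries were made from total RNA of embryos with the Tecan Ovation RNA-Seq System V2, through double-stranded cDNA. No source used here says that strand was used in counting. Per the methods, the authors removed rRNA reads and aligned the others with bowtie 0.12.7 to the primary transcripts of TAIR10, with up to 2 mismatches and reads with more than 1 best place dropped. The raw counts of reads on each transcript that they deposited were used here. Their table of normalized values was not used. A row naming no transcript, 39.6% to 86.6% of a file, entered neither library sizes nor tests. Counts on transcripts ranged from 8510887 to 18933870 per library.

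Genes were filtered by filterByExpr, normalized by TMM and tested with glmQLFit and glmQLFTest in edgeR 4.0.16 (R 4.3.3), with 3 libraries per genotype and no block. Standard errors were taken as the size of a log2 fold change over the root of its F statistic, and 95% intervals use the test's degrees of freedom. P-values of the edgeR test set the difference between genotypes against the spread between these libraries, which the paper calls biological replicates. The read share was compared by an exact permutation test. The mitochondrial and chromosome 2 sequences of TAIR10.1 were aligned with blastn. In simulated counts for this comparison, 200 of 18352 genes were changed 3-fold. The edgeR test recovered 95.5% of the changed genes at an adjusted p of 0.05 and called 17 unchanged genes. All genes were drawn at the same dispersion of 0.05, and no library was set apart as WT replicate 1 is here. The simulation therefore does not give the power for the mitochondrial transcripts in these libraries.

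Same-numbered libraries deviated together (correlation of deviations from the genotype means of 0.273, 0.280 and 0.236 for replicates 1, 2 and 3, against -0.233 to 0.0228 for other pairs), and the fit with the replicate number as a block is among the alternatives. Deviations from a genotype mean cancel out over its replicates, so the values of same-numbered and of other pairs are not independent of each other. The pairing comes from these correlations and from no stated batch, and the number of WT replicate 3 is that of its title. No 2 replicates agreed within sampling noise (the lowest chi-square per degree of freedom was 7.28, the highest 94.4).

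The members, gene lists and tests were chosen with earlier results of these data known. Named are the tested mitochondrial genes of the product lists, the 5 most abundant others, called members, the 3 largest rises and falls among members with a mean of at least 10 CPM, and nuclear genes called with all libraries. ATMG00670, ATMG01060, *SDH2-3*, *CYTC-2*, *ABO6* and the endosperm markers given singly were named after their values were seen, and ATMG01090 and ATMG01280 for their annotation. Group counts use lists of ATMG numbers written from general knowledge, and a product is given for a number only where the reference states one. Alternatives covered the filter, the scaling, DESeq2 1.42.0 size factors and test, limma-voom 3.58.1, the threshold, the block and each library left out. Leaving out both first replicates, dropping the fold minimum without WT replicate 1 and adding the chromosome 2 rows to the share were chosen after seeing the data.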

Additional observations from a re-analysis of the deposited data

Results flagged for a closer look

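The row that names no transcript lay outside the comparisons of the report. It held 86.6% of the reads of *wri1-1* replicate 1, above the highest WT library at 45.0%. Its content was not analysed here, and its part in the mitochondrial transcripts that were high in that library was not tested.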

How the results depend on the processing

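No mitochondrial transcript was called under any of the 15 alternatives fitted, the replicate block included (0 calls), when the fold minimum was kept. Without that minimum and without WT replicate 1, 2 were lower and 7 higher in *wri1-1*. The ratio of mitochondrial read shares was 1.32, and 0.862 with the row naming no transcript in the total. It was 1.12 to 1.45 with 1 library left out, 1.09 without both first replicates, 1.30 over nuclear reads, 1.31 with the chromosome 2 rows and 1.32 by pairing (exact sign-flip p = 0.25, the smallest that 3 pairs allow). The median log2 fold change was 0.18 to 0.39 over the other settings, 0.03 to 0.36 with 1 library left out and -0.03 without both. The nuclear genes called, 2 with all libraries, numbered 1 to 5 with 1 library left out and 4 without both. *PMH1* lost its call without *wri1-1* replicate 2 (1.14, adjusted p = 0.0517) or 3 (1.098, adjusted p = 0.0535, edgeR).

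For 37 single transcripts, 512 of 555 alternative fits kept the direction and the call, 41 took the other direction and 2 lost the call. Of the 41, 24 were without WT replicate 1 or without both first replicates. With scaling by library size, ATMG00060 was at 0.18, ATMG00730 at 0.069, ATMG01080 at 0.16 and ATMG01170 at 0.069 on the log2 scale. ATMG00060 was at 0.0065 with DESeq2 and 0.0067 with its size factors in edgeR, ATMG01080 at 0.042 with limma-voom and 0.046 with the replicate block, and ATMG01190 at -0.0075 with no filter. The cause of these changes was not tested. The median standard error was 0.42 for members with a mean under 10 CPM, 0.25 for 10 to 100 CPM and 0.28 for at least 100 CPM. The part of depth in these values was not tested.

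Over the fits with 1 library or both first replicates left out, the log2 fold changes of 16 transcripts lay on both sides of 0. ATMG00060 ran from -0.14 to 0.0704, ATMG00070 from -0.13 to 0.31, ATMG00110 from -0.21 to 1.00, ATMG00270 from -0.27 to 0.63, ATMG00285 from -0.12 to 0.80, ATMG00510 from -0.0598 to 0.39, ATMG00513 from -0.064 to 0.62, ATMG00516 from -0.16 to 0.33, ATMG00520 from -0.021 to 0.71, ATMG00690 from -0.21 to 0.25, ATMG00830 from -0.23 to 0.53, ATMG01080 from -0.22 to 0.38, ATMG01120 from -0.13 to 0.48, ATMG01170 from -0.20 to 0.095, ATMG01190 from -0.0796 to 0.077 and ATMG01210 from -0.45 to 0.16.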

Other observations

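The chromosome 2 genes inside the mitochondrial stretch were read beside the mitochondrial rows. Of 185 genes annotated there, 46 had a row with reads and 45 were tested. They took 0.240%, 0.234% and 0.238% of the counted reads in *wri1-1* and 0.122%, 0.245% and 0.240% in WT, so that WT replicate 1 was low in these rows as in the mitochondrial ones. For every 100 reads on mitochondrial rows there were 13.7, 14.6 and 14.6 on these rows in *wri1-1* and 13.5, 16.1 and 16.6 in WT. None of the 45 was called by edgeR, and 4 had an unadjusted p under 0.05, against 25.1% of all genes. There were 31 above 0 and 14 below, and the median log2 fold change was 0.15 with all libraries and -0.05 without WT replicate 1. AT2G07706, the most abundant, had 609, 555 and 621 CPM in *wri1-1* and 287, 847 and 857 CPM in WT. With WT replicate 1 left out, its log2 fold change was -0.52 (adjusted p = 0.0042, edgeR), against -0.16 with all libraries. AT2G07738 had 25.2, 22.3 and 23.6 CPM in *wri1-1* and 29.8, 38.3 and 39.8 CPM in WT, without overlap, with a log2 fold change of -0.60 (adjusted p = 0.054, edgeR) and -0.73 (adjusted p = 0.0021) without WT replicate 1. AT2G07696 was higher, with 141, 143 and 139.8 CPM in *wri1-1* and 113, 106.5 and 111 CPM in WT, without overlap. Its log2 fold change was 0.36 (adjusted p = 0.090, edgeR) with all libraries and 0.37 (adjusted p = 0.012) without WT replicate 1. These 3 were the genes of the 45 that passed an adjusted p of 0.05 without that replicate, against 21.2% of all genes. They were named here after their values were seen.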
